A study of Mus musculus with 12 samples.

Results

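The transcripts described here are those of 8 C-type lectin receptor genes, Mrc1, Clec10a, Mgl2, Clec7a, Clec4n, Clec4d, Clec4e and Clec12a. They were picked by gene symbol from a table of 34327 genes, and each symbol stood on 1 line of it. The libraries came from bone marrow-derived macrophages (BMDMs) of wild-type C57BL/6J mice, which were differentiated in medium conditioned by L929 cells, a fibroblast line that secretes CSF1. The macrophages were then kept untreated or given interleukin-4 (IL-4) at 20 ng/ml, either embedded in a gel of rat tail collagen I or on tissue culture (TC) plates. Low-collagen gels held 2 mg/ml and high-collagen gels 7 mg/ml of collagen, and the labels give 24 h for every condition. A gel of higher concentration is also stiffer and has smaller pores, so collagen amount, stiffness and pore size cannot be told apart between the 2 gels, and gels and plates also differ in geometry and surface. The 6 conditions had 2 libraries each. The labels do not say whether the 2 came from separate animals or cultures, so the p-values measure the spread between these 12 libraries, which may be technical. Levels are in TPM (a gene's share of all transcripts in a library, with its length taken into account), so genes can be compared with each other, but the values keep no record of sequencing depth. Library totals lay between 999658 and 999723 TPM, and between 11543 and 11910 genes per library reached 1 TPM.

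C-type lectin receptors are surface proteins whose carbohydrate-recognition fold binds sugars or lipids on microbes, dead cells and the body's own glycoproteins. Some are endocytic and carry cargo inward without an activating motif of their own, others signal through the kinase SYK and the adaptor CARD9 to switch on inflammatory genes, and a few recruit phosphatases that dampen activation. IL-4, which signals through STAT6, is known to raise several of the endocytic members in macrophages, and Mrc1 is among the genes most used to mark that state. The macrophage mannose receptor made from Mrc1 also takes up collagen fragments through its fibronectin type II domain.

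All 7 macrophage markers tested for (Adgre1, Csf1r, Cd68, Itgam, Fcgr1, Mertk and Lyz2) were above 1 TPM in all 12 libraries. Their sum was 27533 and 26927 TPM in the untreated plate libraries, 42673 and 45454 in untreated low-collagen gels and 53086 and 53027 in untreated high-collagen gels. With IL-4 it was 17259 and 17251 TPM on plates, 30402 and 31620 in low-collagen gels and 37257 and 35285 in high-collagen gels, and Lyz2 was the most abundant gene of the list in every library. The sum, most of it from Lyz2, was higher in gels and lower with IL-4, but the markers did not all move alike, since Cd68 was higher with IL-4 on each substrate and lower in untreated gels than on untreated plates. No dendritic cell marker of 8 reached 1 TPM in any library, and the sum of the 8 lay between 1.05 and 2.69 TPM. The IL-4 labels were checked on Retnla, which encodes a secreted protein that IL-4 induces in macrophages. Retnla was between 0 and 6.52 TPM in the 6 untreated libraries, against 126.5 and 109.7 TPM with IL-4 on plates, 7612 and 9073 with IL-4 in the low-collagen and 1472 and 1152 in the high-collagen gels.

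The makeup of the lectin transcripts turned over with IL-4. Without it the 8 genes summed to 1706 and 1635 TPM on plates, 1506 and 1666 in low-collagen gels and 1745 and 1649 in high-collagen gels, and Clec4d was the most abundant member in each of these 6 libraries. With IL-4 the sum was 4048 and 4095 TPM on plates, 4223 and 4038 in low-collagen gels and 3651 and 3642 in high-collagen gels, and Mgl2 was the most abundant. The sums of treated and untreated libraries did not overlap. Mrc1, Clec10a, Mgl2 and Clec7a together made up 23.1% and 23.3% of the summed TPM in untreated plate libraries and between 40.1% and 42.7% in untreated gels, against 89.8% to 93.9% with IL-4. The grouping of these 4 genes against the other 4 follows the direction of their change with IL-4 in these same libraries and is a description of them.

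**Figure D1:**
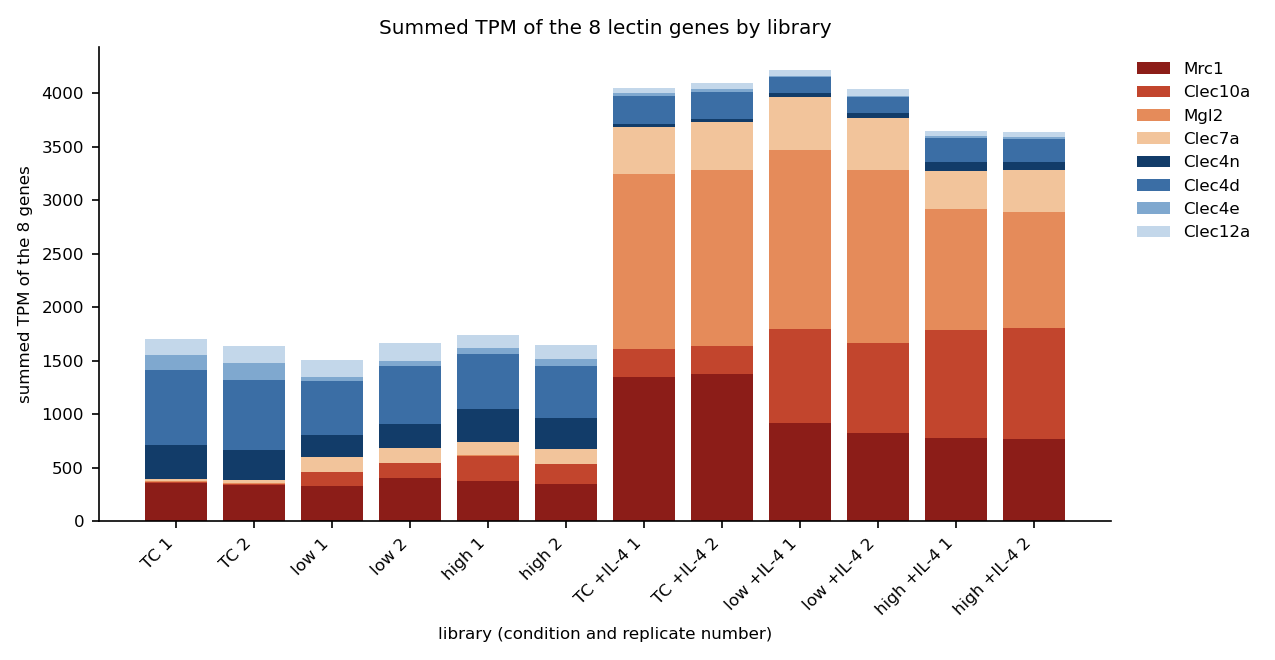
Summed TPM of the 8 lectin genes (y axis) in each of the 12 libraries (x axis, condition and replicate number), with each gene's share as a coloured segment. Mgl2 (bright orange) is hardly visible without IL-4 and is the largest segment with IL-4, and the blue segments (Clec4n, Clec4d, Clec4e and Clec12a) shrink from between 902 and 1312 TPM to between 256 and 373 TPM.

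The mannose receptor gene Mrc1 (chr2:14229392-14332057, plus strand, GRCm38) was at 353 and 340.5 TPM on untreated plates, 327 and 404 TPM in untreated low-collagen gels and 377 and 348 TPM in untreated high-collagen gels. With IL-4 the Mrc1 level was 1349 and 1380.4 TPM on plates, 923 and 823 TPM in low-collagen gels and 773 and 766 TPM in high-collagen gels. The untreated conditions overlapped each other, while the treated ones stood apart in the order plate, low-collagen gel, high-collagen gel. The mean was 3.93-fold higher with IL-4 on plates, 2.39-fold in low-collagen gels and 2.12-fold in high-collagen gels.

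Clec10a and Mgl2 lie next to each other on chromosome 11 (chr11:70156197-70170834 and chr11:70130329-70137550, both on the plus strand) and encode the mouse macrophage galactose-type lectins, endocytic receptors for galactose and N-acetylgalactosamine residues. Of the 31-base words in their annotated transcripts, 13.7% of those of Clec10a also occur in Mgl2 and 19.3% of those of Mgl2 in Clec10a, so part of the reads can be divided between the pair by estimation. Clec10a was at 14.8 and 10.7 TPM on untreated plates, 132 and 137 TPM in untreated low-collagen gels and 233 and 185 TPM in untreated high-collagen gels. With IL-4 Clec10a was at 257 and 254 TPM on plates, 878 and 844 TPM in low-collagen gels and 1011 and 1044.5 TPM in high-collagen gels. Its 6 conditions did not overlap, and both the gel and IL-4 went with a higher level, so that untreated high-collagen gels came nearest to plates with IL-4. Mgl2 behaved otherwise. It was at 6.57 and 7.22 TPM on untreated plates, 2.58 and 5.84 TPM in untreated low-collagen gels and 6.43 and 4.06 TPM in untreated high-collagen gels. With IL-4 Mgl2 was at 1642 and 1652 TPM on plates, 1669 and 1612 TPM in low-collagen gels and 1139 and 1083 TPM in high-collagen gels. Mgl2 was thus near the floor in all 6 untreated libraries, the gels included, and among the treated conditions plates and low-collagen gels overlapped while high-collagen gels were lower. The mean level of Mgl2 with IL-4 was 239-fold the untreated mean on plates, 390-fold in low-collagen gels and 212-fold in high-collagen gels, ratios that rest on untreated means of 4.21 to 6.90 TPM. For Clec10a the same ratios were 20.1, 6.40 and 4.92.

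Clec7a (chr6:129461591-129472779, minus strand) encodes Dectin-1, a receptor for fungal beta-glucan that carries its own SYK-recruiting motif; the annotation of that build gives the gene type as polymorphic pseudogene. The Clec7a level was 19 and 23.2 TPM on untreated plates, 143 and 135 TPM in untreated low-collagen gels and 128 and 141 TPM in untreated high-collagen gels. With IL-4 Clec7a was at 443 and 445 TPM on plates, 496 and 488 TPM in low-collagen gels and 355 and 387 TPM in high-collagen gels. Untreated gels were therefore above untreated plates by 6.60-fold (low) and 6.38-fold (high) in the mean, and after IL-4 the means of the 3 substrates lay within 1.33-fold of each other. The rise with IL-4 was 21-fold on plates, 3.54-fold in low-collagen gels and 2.75-fold in high-collagen gels.

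Because Mrc1, Mgl2 and Clec7a moved together with IL-4, their upstream sequences were searched for TTC and GAA with 4 bases of any kind between them, the palindrome that STAT6 prefers. RefSeq upstream sequences (GRCm38.p6) matched 6 of the 8 genes in 7 windows, since Clec7a has 2 start sites; Clec10a and Clec4n had no entry. In the 250 bases before the start, on both strands, this motif was found in Clec7a alone among the 6 genes, against 5.85% of all 32851 windows. Bases 250 to 51 before the start are shown for these 3 genes, with the match to the motif in capitals; the stretches are chr6:129472830-129473029 on the minus strand for Clec7a, where the match lies 131 to 122 bases before the start, chr11:70130107-70130306 on the plus strand for Mgl2 and chr2:14229164-14229363 on the plus strand for Mrc1.
Clec7a: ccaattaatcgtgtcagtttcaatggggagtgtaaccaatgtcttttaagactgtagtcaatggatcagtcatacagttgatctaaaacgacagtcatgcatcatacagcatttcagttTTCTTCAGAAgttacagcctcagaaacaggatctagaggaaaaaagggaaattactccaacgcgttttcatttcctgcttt
Mgl2: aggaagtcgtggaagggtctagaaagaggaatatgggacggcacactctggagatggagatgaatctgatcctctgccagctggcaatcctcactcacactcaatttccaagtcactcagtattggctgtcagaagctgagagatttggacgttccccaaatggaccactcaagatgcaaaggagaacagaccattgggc
Mrc1: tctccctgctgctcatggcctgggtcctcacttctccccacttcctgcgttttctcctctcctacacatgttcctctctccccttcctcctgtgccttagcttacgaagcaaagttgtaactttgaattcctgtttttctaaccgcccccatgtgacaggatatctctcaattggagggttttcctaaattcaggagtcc
The match describes these letters and was not tested as a binding site. Another 3 motifs were searched the same way: TTCNNNGAA, the shorter-spaced STAT form (7.02% of windows, in none of the 6 genes), GAGGAAG, a PU.1-type core (10.6% of windows, in Mrc1, Clec4d and Clec12a), and TTGCNNAA, a C/EBP-type form (9.56% of windows, in Clec4e and Clec12a).

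Clec4n, Clec4d and Clec4e sit side by side on chromosome 6 (chr6:123229843-123247021 plus, chr6:123262111-123275265 plus and chr6:123281789-123289870 minus) and encode Dectin-2, MCL and Mincle, receptors that pair with the FcR gamma chain and signal through SYK. Clec4n, the receptor for fungal mannans, was at 317 and 279.8 TPM on untreated plates, 206 and 223 TPM in untreated low-collagen gels and 303 and 288 TPM in untreated high-collagen gels. With IL-4 it was at 27.2 and 24.3 TPM on plates, 38.0 and 45.2 TPM in low-collagen gels and 77.4 and 73.6 TPM in high-collagen gels. All 6 treated libraries were below all 6 untreated ones, by 11.6-fold in the mean on plates, 5.16-fold in low-collagen gels and 3.91-fold in high-collagen gels. Clec4d, which binds mycobacterial glycolipid and forms a complex with Mincle, was at 702 and 659.8 TPM on untreated plates, 504 and 545 TPM in untreated low-collagen gels and 512 and 488 TPM in untreated high-collagen gels. With IL-4 Clec4d was at 262 and 261 TPM on plates, 148 and 157 TPM in low-collagen gels and 229.6 and 221 TPM in high-collagen gels. It kept the highest level of the 3 with IL-4 on every substrate. Clec4e (Mincle), a receptor for the mycobacterial cord factor and for a nuclear protein released by dead cells, was at 143 and 158 TPM on untreated plates, 29.8 and 44.6 TPM in untreated low-collagen gels and 56.3 and 58.5 TPM in untreated high-collagen gels. With IL-4 Clec4e was at 21.5 and 21.4 TPM on plates, 11.2 and 9.36 TPM in low-collagen gels and 19.4 and 21.2 TPM in high-collagen gels. Without IL-4, Clec4e differed most between plates and gels among the 3 genes. Its mean was lower by 4.05-fold in low-collagen and 2.63-fold in high-collagen gels. Of the Clec4n words of 31 bases, 1.96% occur in another gene; Clec4d and Clec4e share none.

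Clec12a (chr6:129342691-129365303, plus strand) encodes an inhibitory receptor that recruits phosphatases and senses uric acid crystals of dead cells. The Clec12a level was 149 and 155 TPM on untreated plates, 162 and 170.2 TPM in untreated low-collagen gels and 130.1 and 136 TPM in untreated high-collagen gels. With IL-4 Clec12a was at 46.4 and 56.1 TPM on plates, 59.3 and 59.1 TPM in low-collagen gels and 46.8 and 46.6 TPM in high-collagen gels. Treated libraries lay below untreated ones on each substrate by a similar ratio of means, 2.97-fold on plates, 2.80-fold in low-collagen gels and 2.85-fold in high-collagen gels.

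**Figure D2:**
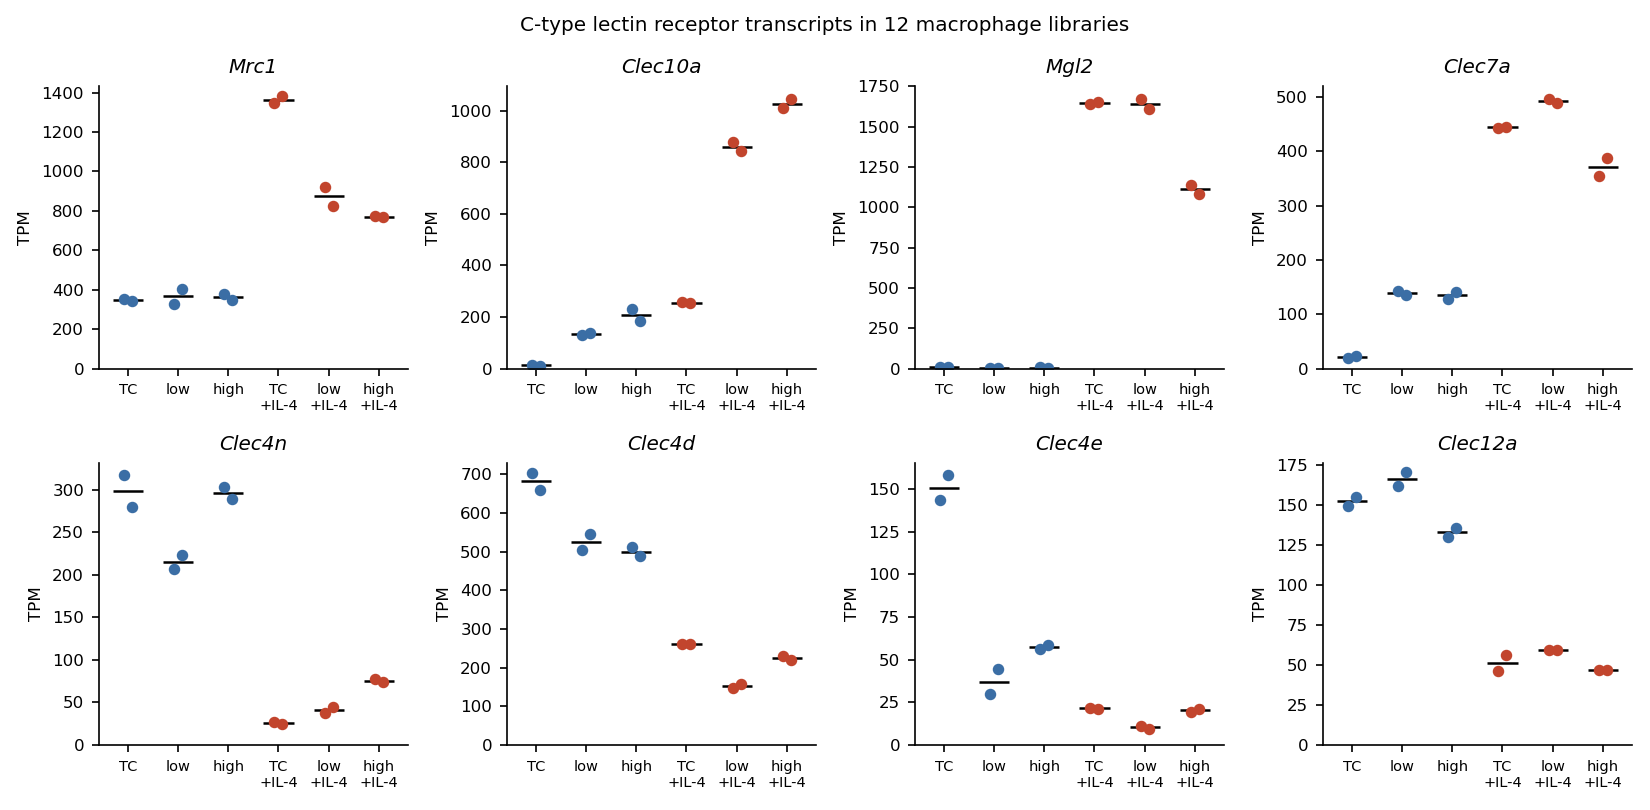
TPM (y axis, linear from 0, own scale per gene) of each of the 8 lectin genes in the 6 conditions (x axis: TC plates, low-collagen and high-collagen gels, without and with IL-4). Points are the 2 libraries of a condition, blue without and red with IL-4, and lines their mean; Mrc1, Clec10a, Mgl2 and Clec7a (top) are higher and Clec4n, Clec4d, Clec4e and Clec12a (bottom) lower with IL-4 on each substrate.

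To test these differences against the spread between libraries, log2(TPM + 1) was fitted with limma over all genes with a mean of at least 1 TPM, and a gene was called at a Benjamini-Hochberg adjusted p under 0.2, the threshold the study used. Fold changes on that scale understate the change of low genes such as Mgl2. In bulk RNA, fewer cells with a transcript and less of it per cell cannot be told apart. The median gene also shifted: by -0.19 on the log2 scale with IL-4 in low-collagen gels, by -0.12 for IL-4 averaged over substrates, and by -0.13 (low) and -0.16 (high) in gels against plates without IL-4 and by -0.28 and -0.20 with it. For these comparisons log2 changes are given below relative to that median unless marked as fitted; medians over genes, values under other settings or without a library, and values in figures are as fitted. On plates and in high-collagen gels the median shift with IL-4 was -0.06 and -0.10, and changes are given as fitted. Low-collagen changes with IL-4 are thus on another scale than those of the other substrates. Every adjusted p and every call refers to a fitted change, and values relative to the median were not tested.

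IL-4 changed all 8 lectin genes on each substrate, 4 upward and 4 downward. On TC plates 4 lectin genes were called higher, against 14.7% of all 11865 genes tested, and 4 lower, against 24.0%. In low-collagen gels 4 were higher, against 13.2% of 11852 genes, and 4 lower, against 40.4%; in high-collagen gels 4 were higher, against 11.5%, and 4 lower, against 22.8%. Averaged over the 3 substrates 4 were higher (17.6% of all genes) and 4 lower (46.3%). The balance among all genes depended on the scale: for IL-4 in low-collagen gels 1567 genes were higher and 4784 lower as deposited, and 2791 and 2497 after median-ratio rescaling of the libraries; on plates the pair was 1745 and 2853 against 2236 and 2403, in high-collagen gels 1366 and 2698 against 1989 and 1766, and averaged over substrates 2089 and 5499 against 3420 and 3415. The 8 lectin calls and their directions were the same under both scales. The median absolute log2 change of the lectin genes was 3.12 on plates, 1.80 in low-collagen gels and 1.48 in those of high collagen, against 0.212, 0.294 and 0.213 over all genes. The 8 genes were chosen with earlier results of these data known. These counts and sizes therefore describe the chosen genes and are no test of C-type lectins as a class.

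On plates Mgl2 rose by a log2 change of 7.71 (SE 0.255, adjusted p 5.09e-08), rank 2 of the increases among 11865 genes. Clec7a (4.34, SE 0.0898) and Clec10a (4.24, SE 0.133) followed at ranks 18 and 19, while Mrc1 rose by 1.97 (SE 0.0932), rank 97. Downward, Clec4n changed by -3.48 (SE 0.0973, adjusted p 1.8e-08), rank 9 from the lowest. Clec4e followed with -2.76 (SE 0.159), rank 22, and Clec12a (-1.56, SE 0.0828) and Clec4d (-1.38, SE 0.0591) changed less. In low-collagen gels the changes relative to the median gene were 8.57 for Mgl2, 2.86 for Clec10a, 2.01 for Clec7a and 1.45 for Mrc1, and -2.15 for Clec4n, -1.59 for Clec4d, -1.55 for Clec4e and -1.28 for Clec12a. As fitted, the scale of the high-collagen values, they were 8.37, 2.67, 1.82 and 1.26, and -2.34, -1.78, -1.74 and -1.47, in the same order. In high-collagen gels Mgl2 rose by 7.50 (SE 0.284), Clec10a by 2.30 (SE 0.0993), Clec7a by 1.46 (SE 0.0727) and Mrc1 by 1.09 (SE 0.104). The decreases there were -1.95 for Clec4n, -1.49 for Clec12a, -1.46 for Clec4e and -1.15 for Clec4d. The largest adjusted p of the 8 genes was 1.74e-06 on plates, 0.00034 in low-collagen gels and 0.00128 in high-collagen gels, each for Clec4e. Leaving out any single library, or any other setting tried, lost none of these 24 calls.

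**Figure D3:**
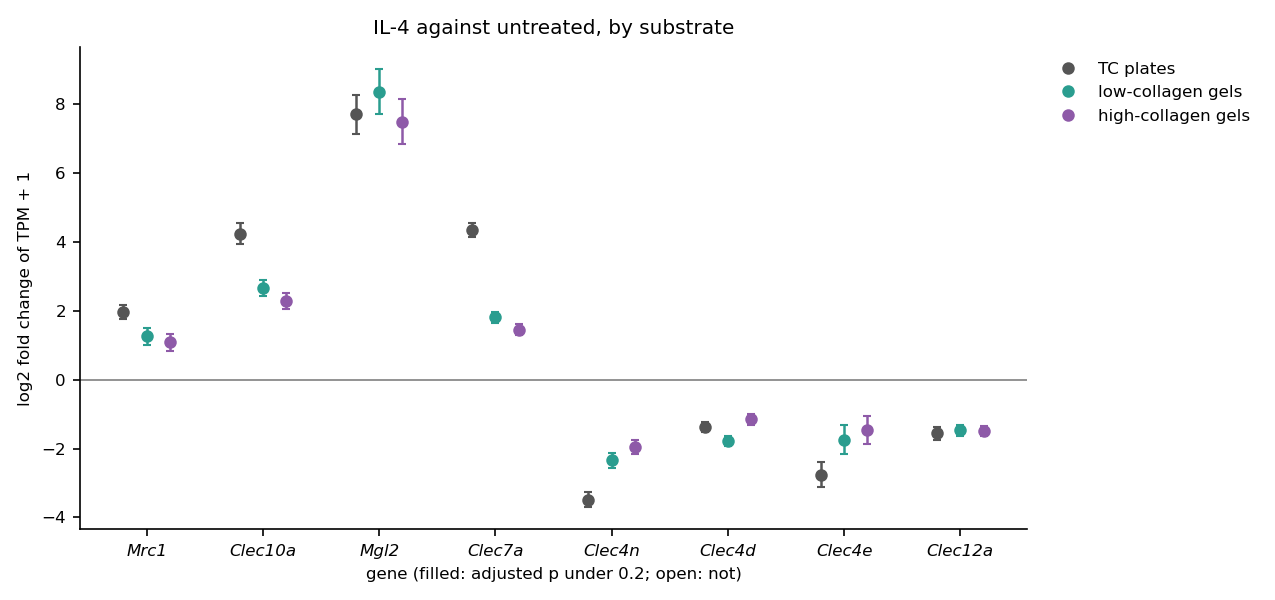
Log2 fold change of TPM + 1 with IL-4 against untreated (y axis) for the 8 lectin genes (x axis) on TC plates and in both gels (low-collagen green, high-collagen purple). Points are limma estimates as fitted and bars their 95% confidence intervals; Clec7a and Clec10a stand higher on plates, at 4.34 and 4.24, than in gels, at 1.46 to 2.67.

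The size of the IL-4 response differed between plates and gels for 6 of the 8 genes. This was tested as the IL-4 change in a gel minus that on plates, so a negative value means a smaller rise or a deeper fall in the gel; both gel comparisons use the same plate libraries. For low-collagen gels 2 lectin genes were called higher, against 9.30% of all genes, and 4 lower, against 18.7%. For high-collagen gels 3 were higher, against 8.66%, and 3 lower, against 8.61%. The split among all genes was 1104 higher and 2215 lower for low-collagen gels, or 1724 and 1194 after median-ratio rescaling, and 1028 and 1022, or 1322 and 829, for high-collagen gels. The median gene shifted by -0.12 for low-collagen and by -0.03 for high-collagen gels, so called values are given relative to the median for the former and as fitted for the latter. Clec7a differed most, by -2.40 for low-collagen gels, which was -2.52 as fitted (adjusted p 1.19e-05). For high-collagen gels it differed by -2.88 (adjusted p 6.55e-06), rank 13 from the lowest of all genes. Clec10a differed by -1.45 and -1.94 and Mrc1 by -0.60 and -0.89. The falls of Clec4n and Clec4e were shallower in gels, by 1.26 and 1.53 for Clec4n and by 1.14 and 1.30 for Clec4e. As fitted, Mgl2 (0.67, SE 0.361, adjusted p 0.274, and -0.20, SE 0.361, adjusted p 0.809) and Clec12a (0.09 and 0.07, SE 0.117) did not pass the test; the 95% interval for Clec12a was -0.18 to 0.35 in low-collagen gels and -0.19 to 0.33 in high-collagen gels. The value for Mgl2 in low-collagen gels passed after rescaling (0.84, adjusted p 0.173) and without the low-collagen untreated replicate 2 (1.13). With single libraries left out that value lay between 0.20 and 1.13. Clec4d fell more in low-collagen gels than on plates (-0.28 relative to the median, and -0.40 as fitted with an adjusted p of 0.0153) and less in high-collagen gels (0.23, adjusted p 0.155). The high-collagen call for Clec4d was lost without replicate 1 of untreated plates (0.18, adjusted p 0.382), replicate 2 of untreated high-collagen gels (0.19, adjusted p 0.324), either plate library with IL-4 (0.23, adjusted p 0.262 and 0.279) or either high-collagen library with IL-4 (0.20 and 0.26, adjusted p 0.336 and 0.202). It was also lost with no filter (adjusted p 0.349), without the mean-variance trend (adjusted p 0.286) and with the GC and length correction (0.20, adjusted p 0.24).

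Gels were compared with plates at each IL-4 state; the 2 gels share the plate libraries. Without IL-4, 2 lectin genes were called higher in low-collagen gels, against 28.5% of all genes, and 4 lower, against 44.3%. In high-collagen gels 2 were higher, against 28.0%, and 3 lower, against 45.5%. As most genes were called in these comparisons, the sizes of the lectin changes and their ranks are given as well. Relative to the median gene Clec10a was higher by 3.45 (low) and 4.10 (high), ranks 20 and 8 of 11865 genes. Clec7a was higher by 2.80 and 2.79, ranks 75 and 79. Clec4e was lower by -1.88 and -1.21 relative to the median. Mrc1 was at 0.20 and 0.22 relative to the median, and its fitted changes of 0.07 and 0.06 did not pass (adjusted p 0.559 and 0.584). After median-ratio rescaling Mrc1 did pass (0.24, adjusted p 0.0228, and 0.26, adjusted p 0.0174). Over all alternatives its value reached 0.35 (low) and 0.34 (high), with adjusted p as low as 0.00102 and 0.00107. Without untreated replicate 1 of low-collagen gels the low-collagen value was 0.22. Clec4d was at -0.24 and -0.28 relative to the median, called in both. Clec4n was at -0.34 in low-collagen gels, called, and at 0.15 in high-collagen gels, not called; the latter changed sign with the scale, from -0.01 as fitted to 0.18 after rescaling, where it was called higher (adjusted p 0.191). Clec12a was at 0.26 in low-collagen gels, not called, and at -0.03 in high-collagen gels, where the call of the fitted -0.19 was lost after rescaling and without untreated plate replicate 2 (-0.17, adjusted p 0.23) or high-collagen untreated replicate 1 (-0.16, adjusted p 0.226). The Clec12a value in low-collagen gels, 0.13 as fitted, passed after median-ratio rescaling (0.30, adjusted p 0.0106), quantile normalization (0.28, adjusted p 0.014) and the GC and length correction (0.33, adjusted p 0.00465), and without either plate library with IL-4 (adjusted p 0.096 and 0.0958). Mgl2 was called lower in low-collagen gels, at -0.54 relative to the median and -0.67 as fitted, from levels under 8 TPM; it was -0.21 without untreated low-collagen replicate 1, where the call was lost (adjusted p 0.374), and -1.14 without replicate 2. In high-collagen gels Mgl2 was at -0.20 relative to the median, -0.36 as fitted, and not called (adjusted p 0.245). With single libraries left out the fitted value lay between -0.64 and -0.09. It was called without untreated high-collagen replicate 1 (-0.64) and without either untreated low-collagen library.

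With IL-4, 4 lectin genes were higher in low-collagen gels than on plates, against 22.8% of all genes, and 3 lower, against 52.2%. In high-collagen gels 2 were higher, against 26.5%, and 4 lower, against 48.1%. As deposited, 2708 genes were higher and 6198 lower in low-collagen gels and 3148 and 5704 in high-collagen gels, against 4316 and 4238, and 4464 and 4314, after median-ratio rescaling; without IL-4 the pairs were 3383 and 5257, and 3318 and 5403, against 4397 and 4270, and 4392 and 4352. Clec10a stayed higher in gels, by 2.02 and 2.21 relative to the median, and Clec4n was higher by 0.95 and 1.72. Mrc1 was lower by -0.37 and -0.62. Over all alternatives its fitted value lay between -0.80 and -0.17 in low-collagen gels and between -0.87 and -0.48 in high-collagen gels. Clec7a, which was far higher in untreated gels, was at 0.42 and -0.06 relative to the median once IL-4 was present. Clec4d was at -0.50 and -0.01 and Clec4e at -0.72 and 0.13, so the high-collagen values of Clec7a, Clec4d and Clec4e were near that of the median gene. After rescaling, Clec4d changed sign in high-collagen gels (from -0.22 as fitted to 0.03) and so did Clec4e (from -0.07 to 0.16) and Clec12a (from -0.13 to 0.12), both of which passed as higher after quantile normalization (Clec4e 0.22, adjusted p 0.193, and Clec12a 0.15, adjusted p 0.146) and the GC and length correction (0.24, adjusted p 0.099, and 0.14, adjusted p 0.138), and the high-collagen calls of Clec7a (-0.01, adjusted p 0.916) and Mgl2 (-0.32, adjusted p 0.286) were lost. The Mgl2 call in high-collagen gels was also lost without high-collagen IL-4 replicate 2 (-0.53, adjusted p 0.21). The low-collagen call of Clec7a (0.15 as fitted, adjusted p 0.177) was lost without either plate library with IL-4 (adjusted p 0.319 and 0.303) or either low-collagen library with IL-4 (adjusted p 0.347 and 0.281). For Clec12a in low-collagen gels (0.49 relative to the median, 0.21 as fitted) the call was lost without plate IL-4 replicate 1 (0.08, adjusted p 0.391), and the value was 0.34 without replicate 2. The uncalled Clec12a value in high-collagen gels was called without plate IL-4 replicate 1 (-0.26, adjusted p 0.0142).

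**Figure D4:**
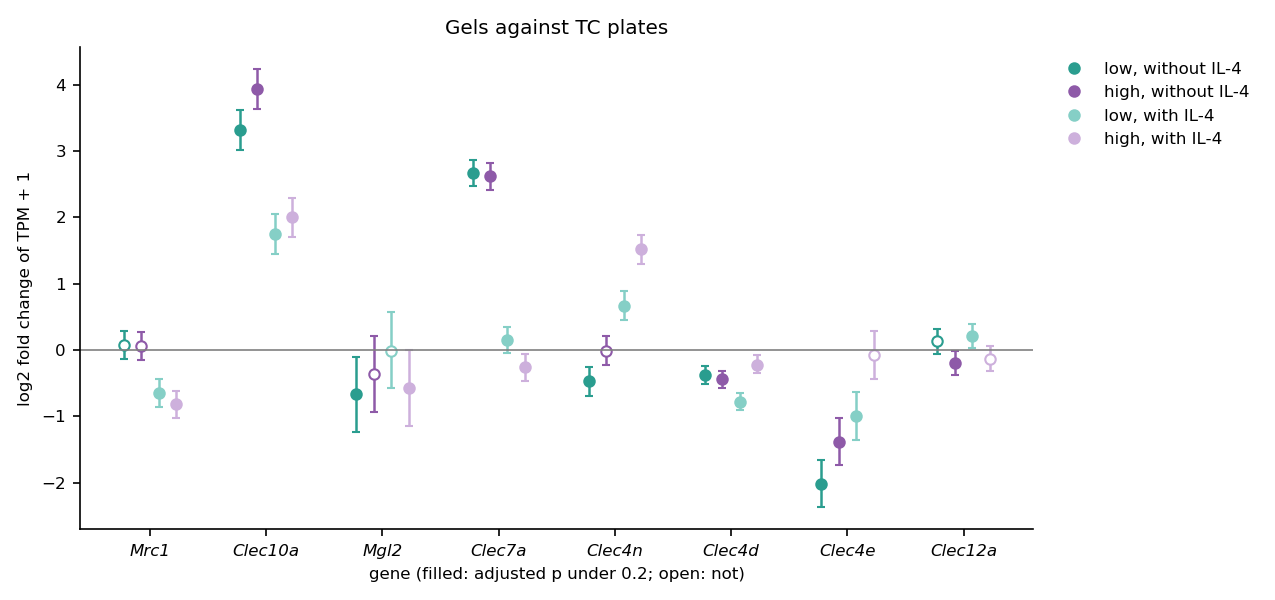
Log2 fold change of TPM + 1 in gels against TC plates (y axis) for the 8 lectin genes (x axis), for low-collagen and high-collagen gels without and with IL-4. Points are limma estimates as fitted, before subtraction of the median shift of -0.13 to -0.28, filled where called and open where not, with 95% confidence intervals; Clec10a is above 0 in all 4 comparisons and Clec7a only without IL-4 by more than 0.15.

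Markers of other cell types moved with some of these comparisons. Of 4 monocyte markers (Ly6c2, Ccr2, Vcan and Plac8) the sum was 3.58 and 5.83 TPM on untreated plates, 25.2 and 27.6 in untreated low-collagen gels and 40.9 and 41.7 in untreated high-collagen gels, and 3.46 and 3.40, 8.98 and 8.62, and 12 and 12.1 TPM with IL-4 in the same order. Ccr2 was the most abundant of them in each library, at 2.45 to 36.4 TPM. Of 8 neutrophil markers the sum was 14.7 and 11 TPM on untreated plates, 36.6 and 49.8 in untreated low-collagen gels and 35.4 and 31.2 in untreated high-collagen gels, and 14.2 and 22.8, 29.8 and 20.9, and 22.9 and 22 TPM with IL-4. Mmp8, S100a8 or S100a9 led that list, and Ly6g was listed at 0 in all 12 libraries. Both sums were higher in untreated gels than on untreated plates, as Clec10a and Clec7a were. Their part in the lectin differences was not tested. The eosinophil and fibroblast lists summed to at most 3.37 and 0.668 TPM.

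High-collagen and low-collagen gels, the comparison of gel density and stiffness, differed less. Without IL-4, 3 lectin genes were called higher in high-collagen gels, against 3.23% of 11852 genes, and 1 lower, against 4.79%. Clec10a was higher by 0.62 (SE 0.0993, adjusted p 0.0522), Clec4e by 0.64 (SE 0.178, adjusted p 0.147) and Clec4n by 0.46 (SE 0.092, adjusted p 0.0733). Clec12a was lower, at -0.32 (SE 0.064, adjusted p 0.0742). Mrc1 (-0.01), Clec7a (-0.05), Clec4d (-0.07) and Mgl2 (0.31, SE 0.284) did not pass; their 95% intervals were -0.25 to 0.24, -0.22 to 0.12, -0.22 to 0.08 and -0.35 to 0.97. Among all genes 383 were higher and 568 lower, or 455 and 427 after median-ratio rescaling. Both counts as deposited were lower whichever untreated gel library was left out. Most of the lectin calls depended on single libraries. Without high-collagen untreated replicate 1 Clec4n (0.42, adjusted p 0.26), Clec4e (0.67, adjusted p 0.339) and Clec12a (-0.29, adjusted p 0.262) were lost, and without replicate 2 the same 3 (0.49, 0.61 and -0.35, adjusted p 0.231, 0.396 and 0.223). Without low-collagen untreated replicate 1 Clec4n (0.40, adjusted p 0.201) and Clec4e (0.36, adjusted p 0.297) were lost, and without replicate 2 Clec12a (-0.28, adjusted p 0.232). Clec4e was also lost without either high-collagen library with IL-4 (adjusted p 0.201 and 0.208). The Clec10a call held with each library left out, but with no filter on low genes its adjusted p was 0.271.

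With IL-4, 4 lectin genes were higher in high-collagen gels, against 14.1% of all genes, and 2 lower, against 6.99%. Among all genes 1672 were higher and 828 lower, or 1218 and 1350 after median-ratio rescaling. Both counts as deposited were lower whichever gel library with IL-4 was left out. The 3 neighbours of the Dectin-2 cluster were all higher in high-collagen gels, Clec4e by 0.92 (SE 0.178, adjusted p 0.033), Clec4n by 0.85 (SE 0.092, adjusted p 0.00926) and Clec4d by 0.56 (SE 0.065, adjusted p 0.00968). Clec7a, which IL-4 raised, was lower by -0.41 (SE 0.0727, adjusted p 0.0271), and Clec12a, which IL-4 lowered, was lower by -0.34 (SE 0.064, adjusted p 0.0323). Mrc1 (-0.18, 95% interval -0.42 to 0.06) and Mgl2 (-0.56, 95% interval -1.22 to 0.10) did not pass. Over all alternatives the Mrc1 value lay between -0.31 and -0.08, with adjusted p as low as 0.0555. The 2 Mgl2 libraries of each gel nevertheless did not overlap. The spread used in the test includes the untreated libraries, where Mgl2 was at a few TPM. A fit of the 4 gel libraries with IL-4 alone gave an adjusted p of 0.0199 for Mgl2 and 0.195 for Mrc1. Both also passed without either low-collagen untreated library (Mrc1 adjusted p 0.2 after rounding and 0.194, Mgl2 0.12 and 0.108), and Mrc1 after median-ratio rescaling (-0.26, adjusted p 0.142). Clec10a was 0.25 (SE 0.0993, adjusted p 0.182) in high-collagen gels against low, a call that was lost after rescaling (0.18, adjusted p 0.338) and without any 1 of 6 libraries, namely the 2 low-collagen untreated (0.25, adjusted p 0.212 and 0.201), the 2 low-collagen IL-4 (0.28 and 0.23, adjusted p 0.301 and 0.476) and the 2 high-collagen IL-4 libraries (0.28 and 0.23, adjusted p 0.314 and 0.466).

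**Figure D5:**
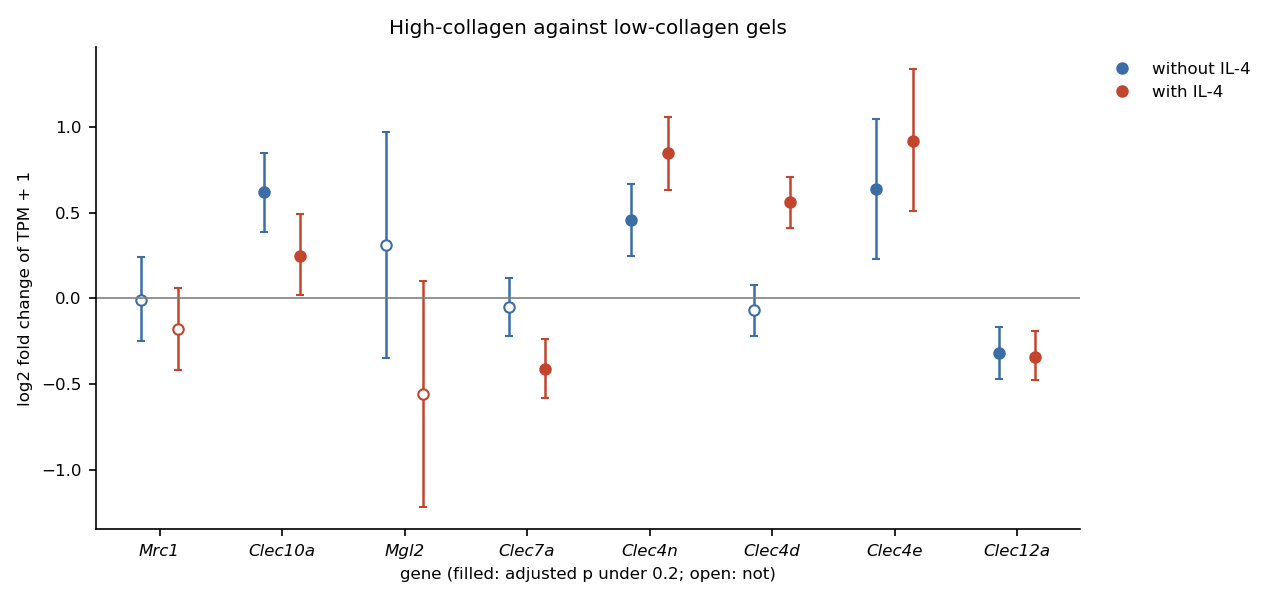
Log2 fold change of TPM + 1 in high-collagen against low-collagen gels (y axis) for the 8 lectin genes (x axis), without and with IL-4. Points are limma estimates, filled where called and open where not, with 95% confidence intervals; with IL-4 Clec4n, Clec4d and Clec4e lie at 0.56 to 0.92 and Clec7a and Clec12a at -0.41 and -0.34.

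Whether the IL-4 response itself differed between the gels was tested as an interaction, the IL-4 change in high-collagen minus that in low-collagen gels. Only Clec4d was called, 1 lectin gene against 0.363% of all genes (43 of 11852, with 23 positive and 20 negative, or 14 and 25 after median-ratio rescaling). Its IL-4 change was -1.78 in low-collagen gels and -1.15 in those of high collagen, both as fitted, an interaction of 0.63 (SE 0.0919, adjusted p 0.102), or 0.55 relative to the median gene, which stood at 0.09. The call was lost without either high-collagen untreated library (0.66 and 0.60, adjusted p 0.256 and 0.217), either high-collagen IL-4 library (0.60 and 0.66, adjusted p 0.302 and 0.325), low-collagen untreated replicate 2 (0.57, adjusted p 0.286) or either low-collagen IL-4 library (0.59 and 0.67, adjusted p 0.296 and 0.238), and after rescaling (0.53, adjusted p 0.315). Its sign was positive in each case. For the other 7 genes the interaction lay between -0.87 (Mgl2, SE 0.401) and 0.39 (Clec4n, SE 0.13), with adjusted p from 0.364 upward. With single libraries left out it was -1.34 to -0.40 for Mgl2, -0.53 to -0.20 for Clec10a and -0.33 to -0.02 for Mrc1. Clec10a was called without high-collagen untreated replicate 2 (-0.53). So the higher Clec4e and Clec4n with IL-4 in high-collagen gels came with interactions of 0.28 and 0.39 that did not pass the test. With single libraries left out the Clec4e interaction lay between 0 and 0.56 and that of Clec4n between 0.27 and 0.51.

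Ordered by mean level, the conditions formed a different ladder for each receptor. Clec10a ran from 12.7 TPM on untreated plates through 134.5, 209, 255.5 and 861 to 1028 TPM in IL-4-treated high-collagen gels, an 80.7-fold range with no overlap between neighbours. For Mgl2 the range was 391-fold, and its lowest mean rests on unlike libraries of untreated low-collagen gels (2.58 and 5.84 TPM). Low-collagen gels and plates with IL-4 (means of 1641 and 1647 TPM) overlapped for Mgl2. Clec4e spanned 14.7-fold from low-collagen gels with IL-4 to untreated plates, Clec4n 11.6-fold from plates with IL-4 to untreated plates, and Clec12a 3.56-fold. Over the 12 libraries, which fall into treated and untreated sets, log2 levels of Mrc1 and Clec4n had a Pearson r of -0.981, Mgl2 and Clec12a of -0.974, Mrc1 and Mgl2 of 0.95, Clec10a and Clec7a of 0.932 and Clec10a and Mgl2 of 0.709. These coefficients describe the shared pattern of 6 conditions and carry no p.

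Among 9669 other genes with a mean of at least 5 TPM, those with the pattern most like each receptor over the 12 libraries were found by the same r. For Mrc1 they were Rgl1 (r 0.993), Gatm (0.989) and Il1rl2 (0.985). For Mgl2 they were Cldn11 (0.996), Brwd1 (0.993) and Flt1 (0.992), and for Clec10a Csf2rb (0.979), Fcgr2b (0.977) and Mllt3 (0.977). Clec7a was closest to Atp6v0d2 (0.992), a subunit of the vacuolar proton pump, Gsto1 (0.982) and Il6st (0.979). Among the genes that fell, Clec4n was closest to Nfkbie (0.992), Tlr2 (0.988) and Lpcat2 (0.986). Clec4d was closest to Elk3 (0.99), S1pr1 (0.987) and Pilrb1 (0.985), Clec4e to Dmwd (0.99), Cd93 (0.989) and Arap3 (0.987), and Clec12a to Osgin1 (0.989), Tmsb4x (0.976) and Kctd12 (0.974). Cd93 is itself a member of the wider lectin-domain family.

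The wider family was read from a list of 32 other C-type lectin receptor genes, of which 14 had a mean of at least 1 TPM; Cd209b, Cd209f, Cd209g, Clec4b2, Clec4f and Clec4g were listed at 0 in all 12 libraries. With IL-4, 4 of the 14 were higher and 7 lower on plates, 4 and 7 in low-collagen gels and 5 and 7 in high-collagen gels; after rescaling the pairs were 5 and 5, 4 and 5, and 5 and 5. Among all genes 14.7% were higher and 24.0% lower on plates, 13.2% and 40.4% in low-collagen gels and 11.5% and 22.8% in those of high collagen. Their median log2 change was -0.05, -0.20 and -0.17, against -0.06, -0.19 and -0.10 over all genes. Clec4a3, a relative of the dendritic cell immunoreceptor, resembled Clec7a and Clec10a. Its level was 16.6 and 13 TPM on untreated plates and 129.9 to 135 TPM in the 4 untreated gel libraries, and its log2 change with IL-4 was 1.94 on plates, 1.03 relative to the median in low-collagen gels and 0.82 in high-collagen gels. Clec4a1 was also higher in untreated gels than on plates, by 3.59 and 3.85 relative to the median, but lower with IL-4 (-0.15 on plates, -0.20 relative to the median in low-collagen gels and -0.30 in those of high collagen). Clec5a, an activating receptor that signals through DAP12, went the other way, with 222 and 221 TPM on untreated plates and 28.7 to 34.6 TPM in untreated gels, and its log2 change with IL-4 was -1.53 on plates, -0.12 relative to the median in low-collagen gels and -0.26 in high-collagen gels. In untreated gels against plates 6 of the 14 were higher and 5 lower for each gel, where 28.5% (low) and 28.0% (high) of all genes were higher and 44.3% and 45.5% lower.

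Of 24 genes that carry signals from these receptors, all were tested with the plates and 23 in the gels. On plates 5 were higher and 13 lower with IL-4, in low-collagen gels 5 and 14 and in high-collagen gels 3 and 13; after rescaling these pairs were 6 and 12, 8 and 11, and 5 and 9. The shares of all genes were 14.7% higher and 24.0% lower, 13.2% and 40.4%, and 11.5% and 22.8% in the same order of substrates. The list's median log2 change was -0.28, -0.34 and -0.24, below the median of all genes on each substrate. Lyn, a SRC-family kinase that phosphorylates activation motifs, fell as Clec4n, Clec4d and Clec4e did, by -1.01 on plates, -0.97 relative to the median in low-collagen gels and -1.10 in high-collagen gels. Cblb, a ubiquitin ligase that restrains SYK-coupled receptors, rose by 1.93, 1.42 and 1.11 on the same scales. Prkcd, the kinase between SYK and CARD9, rose by 0.74, 1.02 and 0.66. The phosphatase genes Ptpn6 and Inpp5d of this list were lower with IL-4 on each substrate. Ptpn6 was at 233 and 203 TPM on untreated plates against 145 and 124 TPM with IL-4, and Inpp5d at 150 and 140 against 105.5 and 106. In gels Ptpn6 was at 135 to 142 TPM untreated and 93.2 to 109 TPM with IL-4, and Inpp5d at 111.5 to 129 and 65.8 to 77.6. The FcR gamma chain gene Fcer1g, needed for the surface display of Dectin-2, MCL and Mincle, was at 2215 and 2228 TPM on untreated plates and changed by -0.57 on plates with IL-4 (called) but by 0.19 relative to the median and 0.08 in the gels (neither called). Syk itself changed by 0.06 on plates (not called), -0.38 relative to the median in low-collagen gels and -0.29 in high-collagen gels.

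Of 14 genes known to be induced when activating lectin receptors are engaged, 9 had means under 1 TPM over the 12 libraries, and Csf3 was listed at 0 in all. Tnf was at 54.8 and 62.7 TPM on untreated plates, 8.41 to 12.7 TPM in untreated gels and 1.64 to 15.3 TPM with IL-4, and fell with IL-4 on each substrate by -2.02 (plates), -1.66 (low, relative to the median) and -1.75 (high). Cxcl2 fell by -3.05, -1.67 and -1.65 and Il1b by -0.84, -2.90 and -2.45 on the same scales. Egr2 rose by 4.49, 4.14 and 4.55. Of these values only the low-collagen ones have the median shift taken out, so they do not compare directly with those of the other substrates. In the plate fit 1 of the 5 tested genes was higher and 4 were lower with IL-4, and in the gels 2 of 6 were higher and 4 (low) or 3 (high) lower, with the same counts after rescaling. The shares of all genes called higher and lower with IL-4 were 14.7% and 24.0% on plates, 13.2% and 40.4% in low-collagen and 11.5% and 22.8% in high-collagen gels.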

How the data were processed

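Poly(A) RNA of 12 libraries was sequenced as stranded paired-end reads. The authors estimated transcript abundance with kallisto 0.46.1 on GRCm38, annotated the transcripts with biomaRt and deposited TPM per gene, in 34456 lines. How transcript values were combined into 1 value per gene is not given in the sources used here. The 129 repeated lines were collapsed. All else was computed here: limma 3.58.1 (R 4.3.3) on log2(TPM + 1), genes averaging 1 TPM or more in the fitted libraries, 1 mean per condition, moderated variances with trend, and Benjamini-Hochberg adjustment over all genes. Gel contrasts used the 8 gel libraries, which share 1 estimate of the spread, and others all 12. The study tested read estimates with Sleuth; TPM allow no count test. With 2 libraries a group an exact permutation test cannot go below 0.333. The contrasts were tested on simulated data. The 8 receptors, the gene lists and the markers were chosen with earlier results of these data known. Log2 changes of single genes of the lists were given only where their mean was at least 5 TPM. Nearest patterns were the 3 highest r. Some genes of the planned lists are not reported here and were left out of the lists. Alternatives were other pseudocounts, filters, thresholds, scalings and library sets, no trend, a replicate block, each library left out, and, chosen after seeing the data, a correction by GC content and length of the transcripts. Gene positions and shared 31-base words came from the GENCODE annotation of GRCm38, upstream sequences from RefSeq.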

Additional observations from a re-analysis of the deposited data

Results flagged for a closer look

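Tests of the difference in IL-4 response picked out 13 values. Between high-collagen and low-collagen gels Clec4d differed by 0.63 on the log2 scale. Between low-collagen gels and TC plates the response differed for Mrc1 (-0.71), Clec10a (-1.57), Clec7a (-2.52), Clec4n (1.14), Clec4d (-0.40) and Clec4e (1.02), as fitted. Between high-collagen gels and TC plates it differed for Mrc1 (-0.89), Clec10a (-1.94), Clec7a (-2.88), Clec4n (1.53), Clec4d (0.23) and Clec4e (1.30). The sign of the Clec4d difference against plates was negative for low-collagen and positive for high-collagen gels. No condition had enough libraries for a test of single outlying samples.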

How the results depend on the processing

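With 2 libraries a condition and no depth, small differences are uncertain, and the part of cell makeup, reads shared between Clec10a and Mgl2, or collagen against stiffness was not tested. Counts of lectin genes called with IL-4 were 8 under every setting. For high against low collagen without IL-4 the count of 4 was 1 with no filter, 0 at adjusted p under 0.05, 0 with a 2-fold change as well, and from 1 to 4 with single libraries left out. With IL-4 the count of 6 was 4 with no filter, 5 without the trend, with all 12 libraries or at adjusted p under 0.05, 8 with only the compared libraries, 0 with a 2-fold change, and 5 to 7 with libraries left out. The interaction count of 1 was 0 without the trend, after median-ratio rescaling, with the GC and length correction chosen after seeing the data, at adjusted p under 0.05 and with a 2-fold change, and 0 to 1 with libraries left out. A replicate block, that is pairing by replicate number, also gave 0, 5 for high against low collagen with IL-4, and 7 in place of 6 for low-collagen gels against plates without IL-4 and for high-collagen gels against plates with it; the replicates share only a number, and their deviations from the condition means had correlations of -0.123 to 0.109 between conditions. Low-collagen gels against plates went from 6 to 3 without and from 7 to 1 with IL-4 at a 2-fold change, high-collagen gels from 5 to 3 and from 6 to 2. Scaling moved these counts both ways. Low-collagen gels without IL-4 had 8 after rescaling, quantile normalization or the GC and length correction, and high-collagen gels 6, 5 and 6 in that order without IL-4 and 3, 8 and 7 with it. The IL-4 response in high-collagen gels against plates had 6, and 5 with no filter, without the trend, with the correction or at adjusted p under 0.05, and 4 with a 2-fold change. That in low-collagen gels went from 6 to 4 with a 2-fold change and to 7 after rescaling. Signs turned as follows, nearly all in values not called in the fit reported, some of which passed with the other sign. For high against low collagen without IL-4, Mrc1 was 0.02 rescaled, 0.01 quantile-normalized and -0.16 to 0.15 with libraries left out, Clec7a 0.01 with the GC and length correction and -0.12 to 0.02 left out, Clec4d 0.02 corrected, and Mgl2 -0.16 to 0.77 left out. In the interaction Clec12a was -0.05 to 0.02 left out. For low-collagen gels against plates, Mrc1 without IL-4 was -0.09 to 0.22 left out, and Mgl2 with IL-4 0.31 rescaled, 0.08 corrected and -0.03 to 0.02 left out. For high-collagen gels against plates without IL-4, Clec4n was 0.18 rescaled, 0.14 quantile-normalized, 0.17 corrected (called rescaled and corrected) and -0.10 to 0.08 left out, and Clec12a, called at -0.19, was 0.06 corrected. With IL-4, Clec4d, called at -0.22, was 0.03 rescaled, Clec4e was 0.16 rescaled, 0.22 quantile-normalized and 0.24 corrected, and Clec12a 0.12, 0.15 and 0.14 in the same order and -0.26 to 0.01 left out; both genes were called higher when quantile-normalized or corrected. For the IL-4 response in gels against plates, Clec12a was -0.05 to 0.22 (low) and -0.07 to 0.20 (high) and Mgl2 -0.48 to 0.07 (high) left out.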
